A study of Mus musculus with 2 samples.

Results

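Liver transcript levels of the respiratory chain were compared between ad libitum (AL) feeding and calorie restriction (CR) in males of the inbred mouse strain C57BL/6J. The genes were chosen by symbol: those starting with Nduf, Uqcr, Atp5, Sdha to Sdhd, or Cox4 to Cox8, on probe sets annotated with a single gene. This gave 94 genes with 185 probe sets, of 18193 genes and 45101 probe sets in all. They were 36 complex I, 4 complex II, 8 complex III, 17 complex IV and 17 complex V subunit genes and 12 assembly factor genes. Both groups were wild-type mice, housed singly, that began their diets at 8 weeks of age and were 5 months old at collection. AL mice ate freely for 12 weeks, and CR mice were restricted by 20% for 1 week and by 40% for the other 11 weeks. RNA of 3 livers per diet was pooled in equal amounts and run on 1 Affymetrix array, so each diet is 1 value per probe set.

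The respiratory chain of the inner mitochondrial membrane passes electrons from NADH (complex I) and succinate (complex II) through ubiquinone to complex III, then through cytochrome c to complex IV, which reduces oxygen. Complexes I, III and IV pump protons, and complex V, the ATP synthase, uses the proton gradient to make ATP. Most subunits are encoded in the nucleus and are joined in the organelle to a few encoded by mitochondrial DNA. Hepatocytes are rich in mitochondria and draw on this chain to fuel gluconeogenesis and urea synthesis.

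With 1 pool per diet there is no replicate, no test and no spread between mice. Differences below are on the log2 scale, CR less AL, so that a positive value is higher in CR, by the brightest probe set of a gene unless stated, and they compare 2 pools. Intensities are on a linear scale and are not comparable between probe sets. A gene was taken as measured when its brightest probe set reached an intensity of 7.38, the median of all values, on at least 1 array. This held for 90 of the 94 genes and for 12644 of all 18193. Over all measured genes the median difference was -0.02 and the central 95% ran from -1.04 to 0.89. Of the hepatocyte markers, 7 of 8 had a probe set and all 7 were measured, with a median difference of -0.07. Their summed intensity, which weights bright probe sets most, was 54750 in AL and 48432 in CR, and most of that gap was the fibrinogen gene Fgb (6666 and 2155). Neutrophil markers were lower in CR for 3 of 3 measured, with a median of -1.75 (summed over 4 genes, 102 in AL and 34.0 in CR, with Mpo below the limit). Kupffer cell markers were lower for 7 of 8, with a median of -0.61 and 4 at least 1.5-fold lower. Their sum, 1953 in AL and 1714 in CR, rests mostly on Cd5l and C1qb, which were nearly even. Control probe sets showed more 3' than 5' signal on both arrays, with 3' to 5' ratios of 83.5 in AL and 89.7 in CR for beta-actin and of 46.9 and 53.2 for Gapdh. The 3' to middle ratios were 11.1 and 20.4 for beta-actin and 4.46 and 6.04 for Gapdh. The part of these in the differences below was not tested. In whole liver RNA, fewer cells of a type and less RNA per cell cannot be told apart.

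Respiratory chain genes as a whole differed little between the pools. Of the 90 measured genes, 49 were above 0 and 41 below, with a median of 0.03 and a middle range (quartiles) from -0.21 to 0.19. Among all measured genes 47.4% were above 0 and 52.1% below. At least a 2-fold difference was seen for 2 genes, both higher in CR, the muscle-type complex IV subunit gene Cox7a1 and the complex I subunit gene Ndufa5, and for none in the other direction. Among all measured genes 1.8% were at least 2-fold higher and 2.79% at least 2-fold lower. At 1.5-fold, 6 of 90 genes were higher and 6 lower, beside 6.76% and 9.49% of all measured genes. By counts, the shares past either size were near or below the background. These directions hold relative to most genes on the arrays. The added control spikes were brighter on the CR array, and scaling by them put the median of all measured genes at -1.04 and that of the respiratory chain genes at -0.99.

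**Figure D1:**
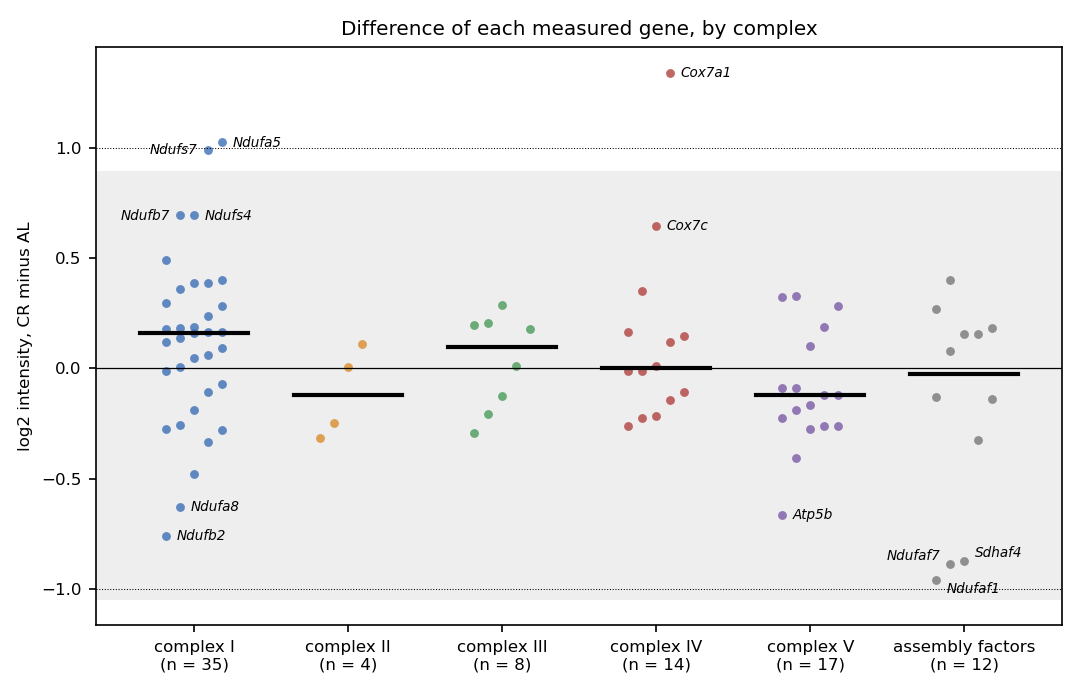
Each point is 1 measured gene, plotted as its difference (log2 intensity, CR minus AL) on the brightest probe set, in columns for complexes I to V and the assembly factors. Black bars are medians, the shaded band is the central 95% of all measured genes (-1.04 to 0.89), dotted lines mark 2-fold and names mark genes at least 1.5-fold apart. The medians lie between -0.12 (complex V) and 0.16 (complex I), and the genes of these complexes overlap.

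**Figure D2:**
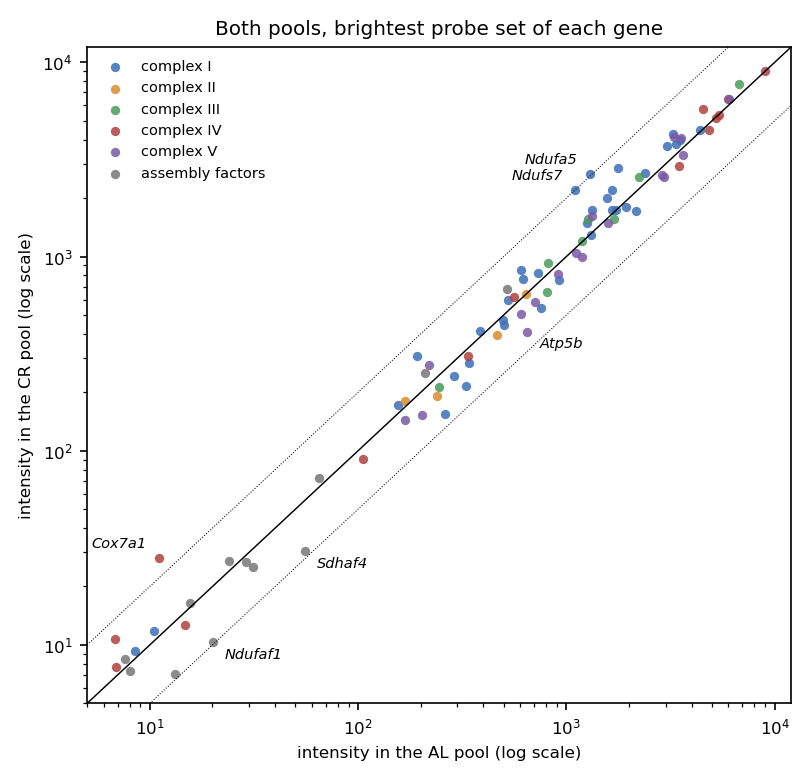
Intensity of the CR pool against that of the AL pool for the 90 measured genes, each on its brightest probe set and on log axes, coloured by complex. The solid line marks equal values and the dotted lines 2-fold. Most genes lie close to the solid line, and Cox7a1 and Ndufa5 lie beyond the upper dotted line.

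The complexes were ordered by median as I, III, IV, II and V, over a span of 0.28. Complex I had a median of 0.16 over 35 measured genes, with 24 above 0 and 11 below. Complex III had 0.10 over 8 genes (5 above, 3 below), and complex IV 0.00 over 14 genes (7 above, 7 below). Complex II stood at -0.12 over 4 genes, 2 on each side of 0. Complex V also stood at -0.12, over 17 genes, of which 5 were above 0 and 12 below. Beside these counts, 47.4% of all measured genes were above 0 and 52.1% below. The quartiles were -0.09 and 0.33 for complex I and -0.26 and 0.10 for complex V, so the middle ranges of these complexes overlapped. Both the top and the bottom place depended on the probe sets used. With only probe sets of the plain type, which leave out those flagged by name as shared between transcripts or open to cross-hybridisation, complex I stood at -0.07 and complex III led at 0.15. Over genes with at least 2 measured probe sets, complex V stood at 0.19. No test of the differences between complexes is possible with 1 array per diet.

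**Figure D3:**
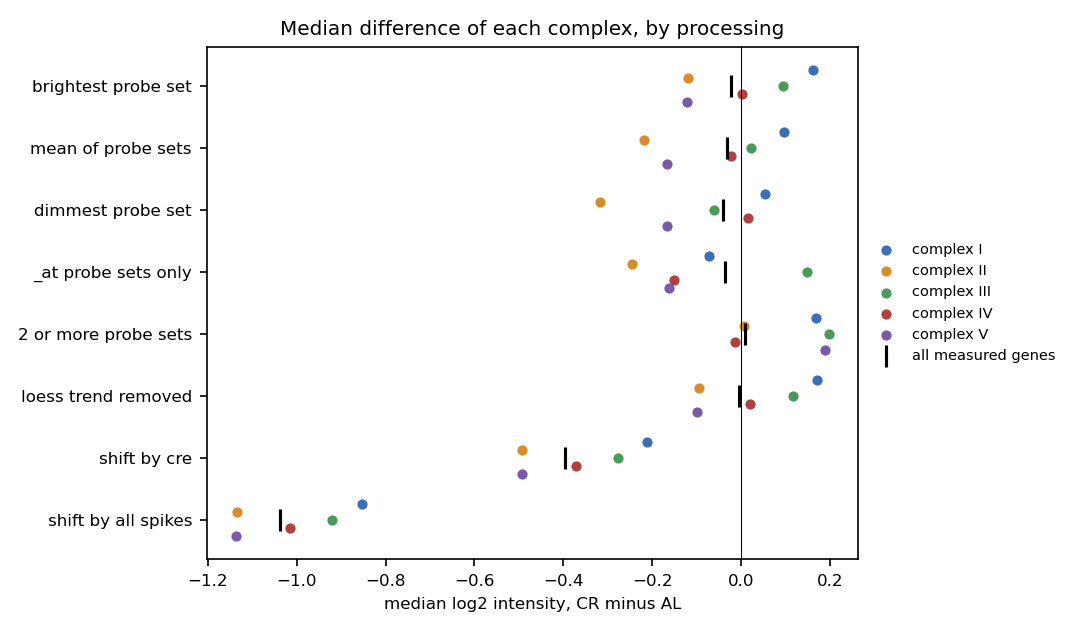
Median difference (log2 CR minus AL) of each complex, as coloured points, and of all measured genes, as a black tick, under the brightest probe set of each gene and 7 other ways of processing. Complex I lies above complex V in each of the 8 except over genes with 2 or more probe sets, where they stand at 0.17 and 0.19. The shifts by control spikes move all points together with the tick.

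Complex I, the NADH dehydrogenase, held the most genes, with differences from -0.76 to 1.02. Its highest gene was Ndufa5, an accessory subunit of the arm that reaches into the matrix, measured at 1303 in AL and 2648 in CR, a difference of 1.02. Its second probe set, at 233 and 367, gave 0.66, so both probe sets were higher in CR. Ndufs7 carries the last iron-sulfur cluster before ubiquinone and had 1103 in AL and 2190 in CR, a difference of 0.99. Its other probe set, 558 in AL and 652 in CR, gave 0.22, the same sign at a much smaller size. Ndufb7, an accessory subunit of the membrane arm, had 1774 in AL and 2867 in CR, or 0.69, and its other probe set gave 0.57. Both measured probe sets were thus higher in CR for each of Ndufa5, Ndufs7 and Ndufb7.

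Ndufs4, an accessory subunit of the NADH-oxidising part whose loss models Leigh syndrome in mice, was the fourth complex I gene past 1.5-fold. Its brightest probe set, of the type open to cross-hybridisation, had 191 in AL and 308 in CR, a difference of 0.69. The other measured ones gave -0.09, with 97.0 and 91.3, and -0.64, with 8.52 and 5.47. The Ndufs4 probe sets thus disagreed in sign, and their mean was -0.01. At the low end, Ndufb2 of the membrane arm had 261 in AL and 154 in CR, a difference of -0.76, and its other measured probe sets gave -0.62 and -0.14. Ndufa8, an accessory subunit facing the intermembrane space, had 331 in AL and 214 in CR on its only probe set, or -0.63. Ndufab1, which doubles as the acyl carrier protein of mitochondrial fatty acid synthesis, had 757 in AL and 544 in CR by its brightest probe set, or -0.48. All its other measured probe sets went the other way. The next brightest went from 109 in AL to 209 in CR, or 0.93, and dim ones gave 0.38 and 0.25. The mean over the 4 measured Ndufab1 probe sets was 0.27.

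By symbol series within complex I, the Ndufb genes of the membrane arm were mostly above 0 by their brightest probe sets. This held for 9 of 10, beside 47.4% of all measured genes, with a median of 0.17. The exception was Ndufb2. Dimmer probe sets were below 0 for Ndufb5 (-1.51), Ndufb11 (-0.34) and Ndufb6 (-0.17), and Ndufb1 was dim at 8.53 and 9.28. All measured probe sets were above 0 for Ndufb7, Ndufb8 and Ndufb9. The genes with symbols starting with Ndufa, which here include Ndufab1, were evenly split, 7 above 0 and 7 below, with a median of -0.01. The Ndufv genes, which form the NADH-binding end with Ndufs1, were all above 0, Ndufv1 at 0.24, Ndufv2 at 0.39 and Ndufv3 at 0.17, although 1 dimmer probe set of Ndufv1 stood at -0.21. Of 6 measured genes for the conserved core subunits, 4 were above 0 (Ndufs1 at 0.14 besides Ndufv1, Ndufv2 and Ndufs7) and 2 below (Ndufs3 at -0.19 and Ndufs8 at -0.01). The core median was 0.19 and that of the 29 accessory genes 0.16. Ndufa4, named as a complex I subunit and since assigned to complex IV, had 2169 in AL and 1724 in CR, or -0.33. Its paralog Ndufa4l2, known as a hypoxia-induced gene, was dim at 10.5 and 11.8. Counting Ndufa4 with complex IV left the medians at 0.16 and -0.01. Ndufb4 did not reach the limit, at 5.03 in AL and 5.01 in CR. Ndufs6 and Ndufa11, which had no probe set with 1 symbol, were not analysed here.

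Complex II, succinate dehydrogenase, is the only complex shared with the tricarboxylic acid cycle, and its genes stayed close to even. Sdha, the flavoprotein that oxidises succinate, had 641 in AL and 644 in CR, or 0.01, and its other measured probe set gave -0.39. Sdhb, the iron-sulfur subunit, had 465 in AL and 393 in CR, or -0.24. Of the membrane anchors, Sdhc had 168 and 181, or 0.11, with a second probe set at -0.66. Sdhd had 238 and 191, or -0.32, with a second at -0.01. When the probe sets of a gene were averaged, all 4 genes were below 0 and the complex II median was -0.22.

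Complex III, ubiquinol-cytochrome c reductase, had differences from -0.29 to 0.29. The highest was Uqcrh, the acidic hinge subunit near the cytochrome c site, with 1277 in AL and 1556 in CR, or 0.29. Its other probe set, 1006 in AL and 1031 in CR, gave 0.04. Uqcrb, a small ubiquinone-binding subunit, had 6721 and 7750, or 0.21, but its dimmer probe set had 375 in AL and 208 in CR, or -0.85. The core protein gene Uqcrc2 stood at 0.20, with a dimmer probe set at -0.13, and its partner Uqcrc1 at -0.21. Uqcrfs1, the Rieske iron-sulfur protein that hands electrons on, had 805 in AL and 657 in CR, or -0.29, the lowest of the complex. Uqcrq, a small subunit, had 1696 in AL and 1554 in CR by its brightest probe set, or -0.13, and 3 dim ones ran from -0.30 to 0.61.

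Complex IV, cytochrome c oxidase, comes with isoforms that differ by tissue, and the liver-type genes were nearly even between the pools. Cox4i1, the ubiquitous form of subunit 4, had 5208 in AL and 5174 in CR, or -0.01. Cox6a1, the liver form of subunit 6a, had 8968 and 9040, or 0.01, with a dimmer probe set at -0.40. Cox7a2, the liver form of subunit 7a, stood at -0.11, Cox8a at -0.14 and Cox6b1 at 0.12. Dimmer probe sets gave -0.23 for Cox7a2 and -0.11 for Cox6b1, and the 3 of Cox8a ran from -0.14 to 0.16. Cox6c had 3490 in AL and 2914 in CR, or -0.26, the lowest of the complex. Its other probe set, 2446 in AL and 2407 in CR, gave -0.02. Cox5b, the zinc-binding subunit, was higher at 0.35, with 4514 in AL and 5748 in CR, and its 5 measured probe sets ran from -0.07 to 0.59. Cox7a2l, of the same family as Cox7a2, stood at 0.15, with all 3 probe sets above 0.

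The largest difference of all members was that of Cox7a1, the heart and muscle form of subunit 7a. It was measured at 11.1 in AL and 28.1 in CR, a difference of 1.34 (2.53-fold) on a single probe set close to the lower end of the measured range. With 16 added to the intensities before the log, its difference was 0.70. Muscle markers beside it were dim. Of 6, the creatine kinase gene Ckm had 11.4 in AL and 14.4 in CR, Actc1 had 6.07 and 8.09, and the other 4 (Acta1, Mylpf, Tnnt3 and Myh6) did not reach it. Of 4 brown fat markers, Ucp1 (4.33 and 4.21), Cidea and Adipoq were below the limit, and Elovl3, which liver also expresses, had 827 in AL and 39.6 in CR. The part of such cells in the Cox7a1 value was not tested. Of the other muscle-type genes, Cox6a2 stood at -0.22 (14.8 and 12.7) and Cox8b, just above the limit, at 0.17 (6.88 and 7.72). The lung-type Cox4i2 (6.12 and 6.28), just below the limit, and the testis-type Cox6b2 (4.53 and 6.08) and Cox7b2 (3.66 and 3.29) were not measured. Cox8c, another testis-type gene, had 106 in AL and 90.7 in CR, or -0.22. Cox7c, a ubiquitous small subunit, was past 1.5-fold on a dim probe set, 6.83 in AL and 10.7 in CR. Its AL value lay below the limit, and its CR value was 1.45-fold the limit. Cox7b was not analysed here.

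Complex V, the ATP synthase, had 12 of 17 genes below 0, beside 52.1% of all measured genes. Atp5b, the catalytic beta subunit of the F1 head, was the lowest, with 649 in AL and 410 in CR, a difference of -0.66 on its only probe set. The other subunits of the head and central stalk stood at -0.27 for Atp5e, -0.26 for Atp5c1 and -0.12 for Atp5d. Atp5a1, the alpha subunit that alternates with beta in the head, had 1329 in AL and 1618 in CR, or 0.28. Its 3 probe sets had the widest range of any member, 1.87: the dimmest had 96.2 in AL and 272 in CR, or 1.499, and the third had 613 and 476, or -0.37. The highest complex V genes were Atp5o at 0.33, a peripheral stalk subunit whose other probe set gave -0.70, and Atp5k at 0.32, a membrane subunit with all 3 probe sets above 0. The 4 peripheral stalk genes had a median of 0.03.

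The ring of c subunits that turns with proton flow is encoded by 3 genes that give the same mature protein. Atp5g1 had 169 in AL and 144 in CR, or -0.22, and Atp5g2 had 203 and 153, or -0.40. Atp5g3 had 6062 and 6496, or 0.10. The sum of protein made from them cannot be read from these values, since intensities of different probe sets are not on one scale.

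Assembly factors are not part of the finished complexes, and 3 of the 12 were among the 6 genes at least 1.5-fold lower in CR. Over all measured genes 9.49% were lower by that size. Ndufaf1, which helps build the membrane arm of complex I, had 20.0 in AL and 10.3 in CR, or -0.96. Sdhaf4, which aids the joining of Sdha to Sdhb, had 55.5 and 30.3, or -0.87. Ndufaf7, a methyltransferase needed for complex I assembly, had 13.2 in AL and 7.11 in CR, or -0.89. Its CR value lay below the limit, and its AL value was 1.78-fold the limit. Each of these rested on 1 measured probe set of low intensity. Other factors were higher: Ndufaf8 had 518 in AL and 682 in CR, or 0.40, and Ndufaf4 had 210 and 253, or 0.27. The dimmer probe set of Ndufaf4 went the other way, 18.3 in AL and 10.3 in CR, or -0.83. The median over the 12 was -0.02, with 6 above 0 and 6 below.

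Probe sets of one gene often disagreed in sign, which bears on every value above. Of 166 measured probe sets, 86 were above 0 and 80 below. At 2-fold 3 were higher and 1 lower, beside 1.99% and 2.97% of all measured probe sets, and at 1.5-fold 11 were higher and 15 lower, beside 7.27% and 10.1%. Of 47 genes with at least 2 measured probe sets, 25 (53.2%) had probe sets of both signs, beside 52.7% of the 4924 such genes in the whole table. All probe sets were above 0 for 13 of the 47 genes, beside 1063 of the 4924. Among the 13 were Ndufa5, Ndufs7, Ndufb7, Ndufv2, Uqcr10, Uqcrh, Cox7a2l, Atp5h and Atp5k. All were below 0 for 9, beside 1224 of the 4924. Among the 9 were Ndufb2, Ndufa10, Ndufc1, Sdhd, Cox6c, Cox7a2, Atp5pb and Atp5d. The median SD between probe sets of a gene was 0.21 on the log2 scale, beside 0.29 over all such genes. The range reached 1 or more in 9 of the 47 genes, beside 711 of the 4924 in the whole table. The widest after Atp5a1 was that of Ndufb5, a membrane arm subunit, with 733 in AL and 819 in CR on the brightest probe set (0.16) and 214 and 74.9 on the other (-1.51). Next came Ndufab1 (1.41), Ndufs4 (1.33) and Ndufaf4 (from -0.83 to 0.27).

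The differences of dimmer and brighter probe sets were then compared. The brightest probe set had a higher difference than the dimmest in 30 of the 47 genes (63.8%) and a lower one in 17, with a median gap of 0.13, beside 54.1% and a gap of 0.06 over all such genes. Genes whose brightest probe set had a mean intensity of 1000 or more (40 genes) had a median of 0.11 with 26 above 0. Those between 100 and 1000 (33 genes) had a median of -0.17 with 14 above 0. Those below 100 (17 genes) had a median of 0.08 with 9 above 0, so the medians did not rise steadily with brightness. Over all measured genes the same classes, in this order, had medians of -0.01, 0.01 and -0.03. Their shares above 0 were 49.4%, 51.4% and 46.3%. Probe sets for members of a family or for genes with processed copies elsewhere in the genome, such as the c subunit genes and Cox7a2 with Cox7a2l, can pick up each other's transcripts, and their single values are uncertain.

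**Figure D4:**
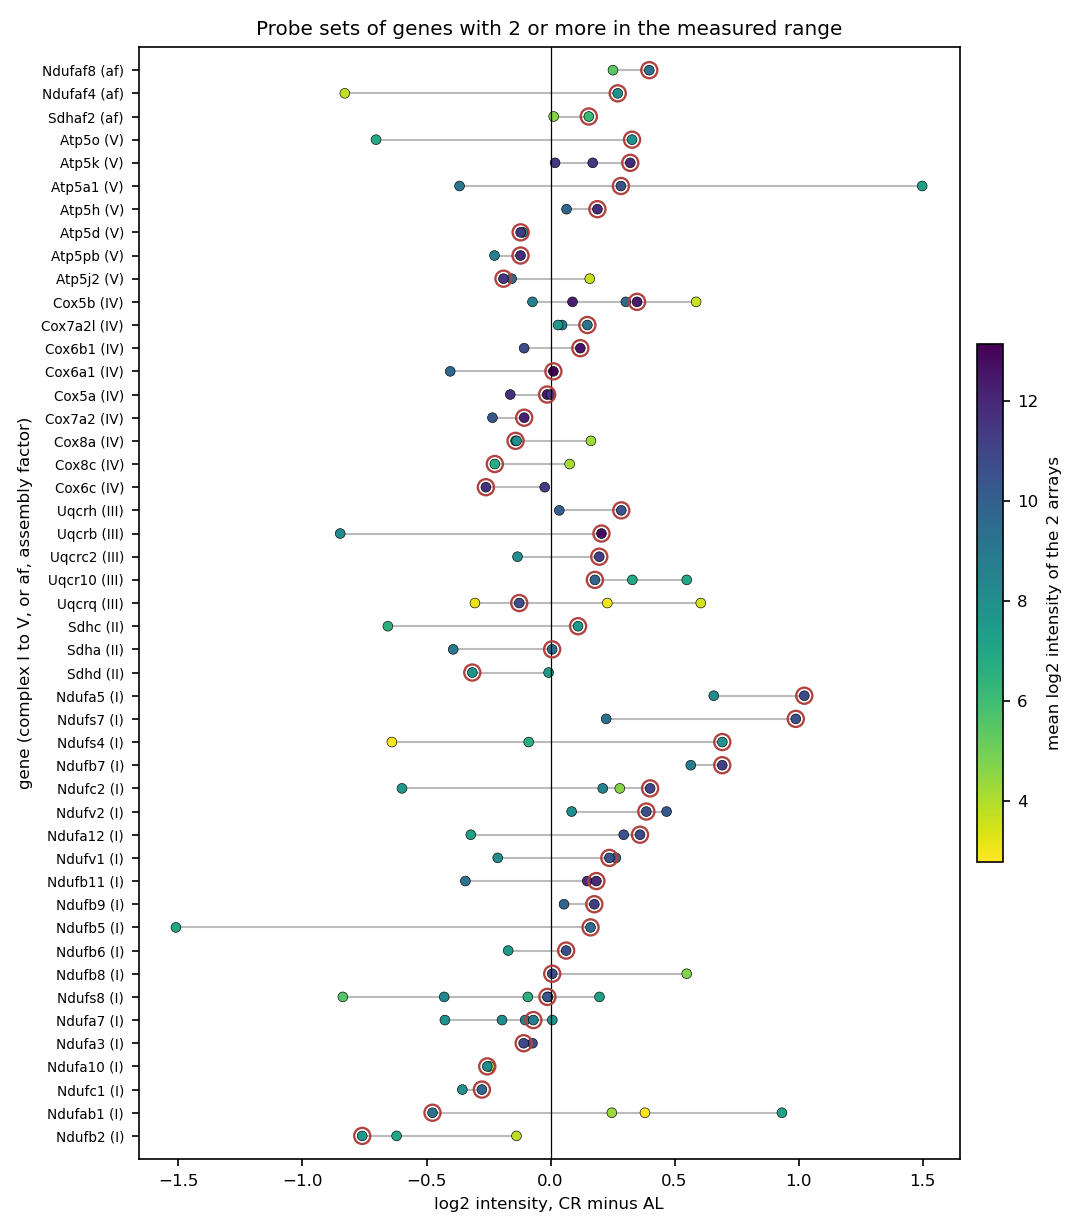
Difference (log2 CR minus AL) of each measured probe set of the 47 genes that have 2 or more, 1 row per gene with its complex in brackets (af, assembly factor), joined by a grey line. Colour gives the mean log2 intensity, darker being brighter, and a red ring marks the brightest probe set. In 25 rows the line crosses 0, and the longest lines are those of Atp5a1 and Ndufb5.

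Promoters were looked at because many nuclear respiratory chain genes are known targets of the factors NRF1, GABPA (of the ETS family) and YY1. RefSeq promoter entries (build GRCm38.p6, 250 bases before to 50 after a gene start) were found for 78 of the 94 genes, with 83 windows, since some genes have more than 1 start. The palindromic NRF1 motif, searched like the others on both strands, was in 20 windows (24.1%), beside 1512 of all 32851 promoters and 6.38% of those of protein-coding genes. The ETS motif CCGGAAG was in 22 (26.5%, beside 8.86% and 11.6%), and the YY1 motif AAGATGGC in 10 (12.0%, beside 2.75% and 3.05%). At least 1 of the motifs searched was in 45 of 83 windows (54.2%), beside 14.7% of all promoters and 18.9% of those of protein-coding genes. Of the 12 genes at least 1.5-fold apart, 4 had a match before the gene start, 3 (Ndufs4, Ndufs7 and Sdhaf4) only after it, and 5 (Cox7a1, Ndufb2, Cox7c, Atp5b and Ndufaf7) had none. The windows with a match before the start and, as an example without one, that of Cox7a1 are shown up to the start, with matches in capitals. They are Ndufa5 (chr6:24527691-24527840, minus strand), Ndufb7 (chr8:83566608-83566757, plus strand), Ndufa8 (chr2:36049339-36049488, minus strand), Ndufaf1 (chr2:119662835-119662984, minus strand) and Cox7a1 (chr7:30184021-30184170, plus strand), each of 150 bases, 5′ to 3′.
Ndufa5: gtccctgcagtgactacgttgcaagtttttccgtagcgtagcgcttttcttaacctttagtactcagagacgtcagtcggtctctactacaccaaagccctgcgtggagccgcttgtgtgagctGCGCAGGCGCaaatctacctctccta
Ndufb7: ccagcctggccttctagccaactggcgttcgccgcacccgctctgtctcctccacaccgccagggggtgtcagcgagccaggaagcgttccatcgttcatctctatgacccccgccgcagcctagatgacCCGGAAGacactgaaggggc
Ndufa8: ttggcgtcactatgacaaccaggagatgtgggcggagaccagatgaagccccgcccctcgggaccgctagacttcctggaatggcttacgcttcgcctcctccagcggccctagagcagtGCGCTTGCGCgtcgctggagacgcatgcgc
Ndufaf1: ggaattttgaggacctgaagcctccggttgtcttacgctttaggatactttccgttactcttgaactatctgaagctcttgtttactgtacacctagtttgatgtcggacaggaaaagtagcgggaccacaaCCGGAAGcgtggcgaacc
Cox7a1: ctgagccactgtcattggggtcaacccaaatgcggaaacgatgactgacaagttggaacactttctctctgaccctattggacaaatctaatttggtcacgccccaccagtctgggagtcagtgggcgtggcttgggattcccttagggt
An NRF1 match stood in the promoter of Ndufa5, higher in CR, and in that of Ndufa8, lower in CR. An ETS match stood in those of Ndufb7, higher, and Ndufaf1, lower. The Cox7a1 window held none of these letters. A match describes the letters only and is no measure of binding.

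Other genes of the pathway, from lists outside the symbol rule, gave the following. None of the 13 genes of mitochondrial DNA had a probe set with 1 symbol, so they were not analysed here. Of 33 measured nuclear genes for cytochrome c, complex assembly and electron transfer, 10 were above 0 and 23 below, with a median of -0.16. Over all measured genes 47.4% were above 0 and 52.1% below. None of the 33 was 2-fold higher, beside 1.8% of all measured genes. At least 2-fold lower was 1, beside 2.79%. It was the electron transfer flavoprotein dehydrogenase Etfdh, which feeds ubiquinone from fatty acid oxidation, at -1.12. Cyc1, the cytochrome c1 subunit of complex III, had 1487 in AL and 1502 in CR, or 0.01. Of 17 measured regulators of mitochondrial biogenesis, 7 were above 0 and 10 below, with a median of -0.02. The coactivator gene Ppargc1a stood at 0.42, with all 5 measured probe sets above 0 (0.32 to 1.45), and the receptor gene Esrra at 0.50, with both above 0. The related coactivator gene Ppargc1b stood at 0.89 and Pprc1 at -1.27, each on 1 probe set. The motif-binding factors stood at 0.03 for Nrf1 (3 probe sets from -0.48 to 0.03), -0.83 for Gabpa (other probe set 0.10) and -0.02 for Yy1 (4 from -0.07 to 0.20).

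Of 14 tricarboxylic acid cycle genes, 9 were above 0 with a median of 0.04, and 1, the dehydrogenase subunit Dld, was at least 2-fold lower at -1.86 (43.4 in AL and 12.0 in CR). Coenzyme Q synthesis genes had a median of 0.04 over 10, and outer membrane and import genes 0.08 over 11, with 7 above 0. Mitochondrial ribosomal protein genes, whose products make the mitochondrially encoded subunits, had a median of -0.25 over 76 genes, with 21 above 0, 55 below and 6 at least 2-fold lower. Over all measured genes 47.4% were above 0, 52.1% below and 2.79% at least 2-fold lower. The Slc25 carriers of the inner membrane had a median of 0.18 over 39 genes, with 23 above 0. The respiratory chain median of 0.03 lay between these, and differences between the lists were not tested.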

How the data were processed

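RNA of 3 livers was combined for each diet and hybridised to 1 array, per the labels' protocols. The deposited values are intensity values that the authors made with RMA, which corrects background, normalizes between arrays and summarises probes, per the submitters' processing notes. They are on a linear scale (medians 7.35 in AL and 7.42 in CR). The RMA version, later scaling and genome build are not given in the sources used here. Since RMA aligns the arrays, it removes any shift common to most genes.

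Gene symbols came from the platform annotation of 2016, and 10 probe sets with several symbols, of which 1 or more matched the rule, were not used. Intensities were transformed to log2. The probe set with the highest mean log2 intensity stood for its gene, and a gene was measured at 7.38 or more on at least 1 array. Counts at 2-fold and 1.5-fold are rules of size, not tests. The number of arrays limits the precision. The members, gene lists and tests were chosen with earlier results of these data known. Named were the 3 highest and 3 lowest genes of each complex, all genes at least 1.5-fold apart, the 5 with the widest probe set range, isoform sets and genes at the limit. Other values were added to describe whole groups and were chosen after they were seen. The steps were checked on simulated data. Alternatives concerned the probe set used, the limit, the scaling, a pseudocount of 16 and the members. Values were computed in Python 3.11.15 with pandas 2.3.3 and numpy 2.4.6, loess with statsmodels 0.14.6, and plots drawn with matplotlib 3.10.9.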

Additional observations from a re-analysis of the deposited data

How the results depend on the processing

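With 1 array per diet, no sample could be left out, and no value has an error. No paired analysis was possible because each diet has 1 array and no test was made. The order of complexes I, III, IV, II and V kept under the changes of limit, centring, trend removal, spike scaling, pseudocount of 16, isoforms left out and Ndufa4 moved. It did not keep under the 4 other choices of probe sets. The cause of each change below was not tested unless fewer genes or a common shift is named.

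Averaging the probe sets of a gene gave medians of -0.024 for complex IV, -0.13 for the assembly factors and -0.046 for all members, and 1 member at least 2-fold higher. Plain probe sets alone measured fewer genes (68) and gave -0.073 for complex I, -0.24 for II, -0.15 for IV, 0.12 for the assembly factors and -0.10 for all. Then 1 member was 2-fold higher and 1 lower, 30 were above 0, and 63.6% of 11 genes with several probe sets had both signs. The dimmest measured probe set, a choice made after seeing the data, gave 0.054 for complex I, -0.32 for II, -0.061 for III, -0.13 for the assembly factors and -0.048 for all, with 1 member 2-fold lower and 12 lower by 1.5-fold.

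Genes with several measured probe sets, fewer in number (47), gave 0.01 (0.0066) for complex II, 0.20 for III, -0.01 for IV, 0.19 for V, 0.27 for the assembly factors and 0.15 for all. Of these 1 was 2-fold higher, 1 lower by 1.5-fold, 30 above 0 and 17 below. Complex IV, near 0, stood at -0.01 (-0.0095) with a limit at the 75th percentile and with Ndufa4 added, at -0.01 (-0.012) with the limit on both arrays and at -0.01 (-0.014) after centring. The assembly factors stood at 0.15 with the higher limit, 0.12 with it on both arrays and 0.01 (0.0050) after trend removal. With the pseudocount, and with isoforms left out, 1 member was 2-fold higher.

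Scaling by all spikes, a common shift, gave -0.85, -1.14, -0.92, -1.01 and -1.14 for complexes I to V, -1.04 for the assembly factors and -0.99 for all. At 2-fold 0 were higher and 45 lower, at 1.5-fold 0 and 83, with 2 above 0, 88 below and 4.26% of both signs. Scaling by the cre spike gave -0.21, -0.49, -0.28, -0.37 and -0.49, then -0.40 and -0.34, beside -0.40 for all measured genes. At 2-fold 0 were higher and 5 lower, at 1.5-fold 3 and 23, with 11 above 0, 79 below and 23.4% of both signs. Of single genes, Ndufs4 stood at -0.01 on the mean, -0.088 on plain probe sets and -0.64 on the dimmest. By all spikes Cox7c stood at -0.37, Ndufb7 at -0.32, Ndufs4 at -0.32 and Ndufs7 at -0.026.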
